A study of Mus musculus with 6 samples.

Results

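The genes described here are the nuclear genes for respiratory complexes II, III, IV and V of the inner mitochondrial membrane, together with cytochrome c and a set of their assembly factors. They were chosen by symbol: Sdha to Sdhd and the Sdhaf genes for complex II, symbols starting with Uqcr plus Cyc1 and Cycs for complex III and cytochrome c, Cox symbols followed by a digit plus Surf1, Sco1 and Sco2 for complex IV, and symbols starting with Atp5 for complex V. Cox7a1 and Cox8b, 2 isoforms used as thermogenic fat markers, and pseudogene symbols were left out. This gave 62 of the 16423 genes in the table, 8 for complex II, 10 for complex III with cytochrome c, 27 for complex IV and 17 for complex V. The C3H10T1/2 line, of mesenchymal stem cells from mice, was induced to adipocytes for 2 days with 0.5 mM isobutylmethylxanthine, 1 µM dexamethasone, 850 nM insulin, 1 nM triiodothyronine, 125 nM indomethacin and 1 µM rosiglitazone, and then kept for 2 days in triiodothyronine, insulin and rosiglitazone at those doses. On day 4 the cells were transfected with siRNAs against YBX1 (siYBX1, 3 libraries, genotype given as YBX1 knockdown) or with a control siRNA (siNC, 3 libraries, genotype given as WT), and RNA was taken 48 h later. Both groups therefore share the line and all inducing agents. Whether the replicates were grown as separate cultures is not stated, and a p-value here measures no more than library-to-library spread, technical spread included.

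Complex II oxidises succinate and passes the electrons to ubiquinone. Complex III moves them on to cytochrome c, complex IV hands them to oxygen, and complex V is the ATP synthase, which uses the resulting proton gradient to make ATP. Subunits of complexes III, IV and V are encoded partly in the mitochondrial genome, whose genes are not analysed here, while complex II is encoded entirely in the nucleus. Brown adipocytes are rich in mitochondria and, through uncoupling, can burn the gradient as heat with relatively little ATP synthase. YBX1 binds nucleic acids through a cold-shock domain and takes its name from the Y-box, an inverted CCAAT box.

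Ybx1 itself was measured at 59.3, 67.9 and 61.3 FPKM in the siYBX1 libraries, against 135, 134 and 130 FPKM in the siNC libraries. FPKM is the fragment number scaled by gene length and library total. The mean was 62.9 ± 4.50 FPKM in siYBX1 and 133 ± 2.98 FPKM in siNC (SD, n = 3 each), which is a log2 fold change of -1.07 with an SE of 0.06 (limma, adjusted p = 4.0e-06). All fold changes here are siYBX1 over siNC on the log2(FPKM + 1) scale, tested with limma where mean FPKM reached 1, and a gene was called at a Benjamini-Hochberg adjusted p below 0.05 over all 10341 genes tested. Over all these genes 987 were higher (9.54%) and 1145 lower (11.1%) in siYBX1. Higher genes were 46.3% of the calls, and 29.6% when the values were rescaled to TPM. Library totals, recovered from the FPKM steps, were 31957411 to 35410308 reads for siYBX1 and 34207232 to 35299269 reads for siNC. Markers were summed per list. Adipocyte markers summed to 2678 to 3143 FPKM in siYBX1 and 2159 to 3006 FPKM in siNC, with 0 of 8 higher and 1 (Plin4) lower. Brown adipocyte markers summed to 140.6 to 215 FPKM in siYBX1 and 140.4 to 172 FPKM in siNC. Cox8b made up most of this, at 174, 122 and 105 FPKM in siYBX1 and 101, 105 and 132 FPKM in siNC. Of the 7 brown markers analysed, 3 were tested and none was called by limma or voom (0 also at an unadjusted p below 0.05), while Elovl3 and Prdm16 were at or near 0. Dio2 and Ppargc1a, with means of 0.28 and 0.67 FPKM over all libraries, were not tested either. Undifferentiated mesenchymal markers summed to 487 to 509 FPKM in siYBX1 and 530 to 552 FPKM in siNC, with 0 of 4 tested genes higher and 2 lower, Eng (-0.39, adjusted p = 0.0142, limma) and Cd44 (-0.23, adjusted p = 0.0117). Ly6a, which was not called by limma, made up most of it, at 439 to 462 FPKM in siYBX1 and 480 to 498 FPKM in siNC. Smooth muscle and myofibroblast markers summed to 2011 to 2110 FPKM in siYBX1 and 577 to 647 FPKM in siNC, with 4 of 4 tested genes higher. Most of this sum was Acta2, at 1643 to 1711 FPKM in siYBX1 and 484 to 537 FPKM in siNC. Cnn1, also on this list, reached at most 0.14 FPKM in any library and was not tested. Macrophage and endothelial lists summed to at most 24.4 FPKM in any library, with Adgre1, Ptprc and Pecam1 at or near 0. Cd68 made up nearly all of the macrophage sum, with means of 9.13 FPKM in siYBX1 and 15.97 FPKM in siNC. It was highest in siNC replicate 1 (24.3 FPKM). Egfl7 made up nearly all of the endothelial sum, with means of 17.38 FPKM in siYBX1 and 19.86 FPKM in siNC. Neither gene was called by limma. The skeletal muscle list summed to at most 7.04 FPKM, with 1 of 2 tested genes (Acta1) higher. The part of these lists in the results below was not tested. In bulk RNA, fewer cells of a type and less RNA per cell cannot be told apart.

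A minority of the genes for complexes II to V were called, and all of these were higher in siYBX1. Of the 58 genes with enough signal to test, 8 were called higher (13.8%, against 9.54% of all genes) and 0 lower, and 50 were not called. At an unadjusted p below 0.05 there were 28 higher and 0 lower, against 17.2% of all genes higher and 19.0% lower at that level, and voom on recovered reads called 14 higher and 0 lower (8.75% and 11.5% of all genes). The called genes were Atp5md, Uqcrb, Atp5mpl, Atp5h, Atp5j, Atp5pb, Cox6a1 and Surf1, with log2 fold changes between 0.18 and 0.41. Fold changes were above 0 for 47 of 58, with a median of 0.16, against -0.01 over all genes. In 22 of 58 (37.9%, against 19.0% of all genes) every siYBX1 library lay above every siNC library. The medians were 0.07 for complex II, 0.17 for complex III with cytochrome c, 0.18 for complex IV and 0.23 for complex V, and the calls were 0 of 8, 1 of 10, 2 of 23 and 5 of 17 in that order. The 43 tested structural subunits and cytochrome c had 7 calls and a median of 0.17, and the 15 tested assembly factors had 1 call and a median of 0.07. The same direction was seen in complex I, with a median of 0.23. There 11 of 39 tested structural subunit genes were higher (28.2%, against 9.54% of all genes). None was lower (1 at an unadjusted p below 0.05, 0 by voom). Of these 39 genes 35 (89.7%) were in the shortest of 5 equal groups by gene length, where 18.9% of all genes were higher. Of the 58 genes of complexes II to V 45 (77.6%) were in that group, among them all 8 called. The 4 genes below the level for testing were Sco2, Cox4i2, Cox7b2 and Cox8c.

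**Figure D1:**
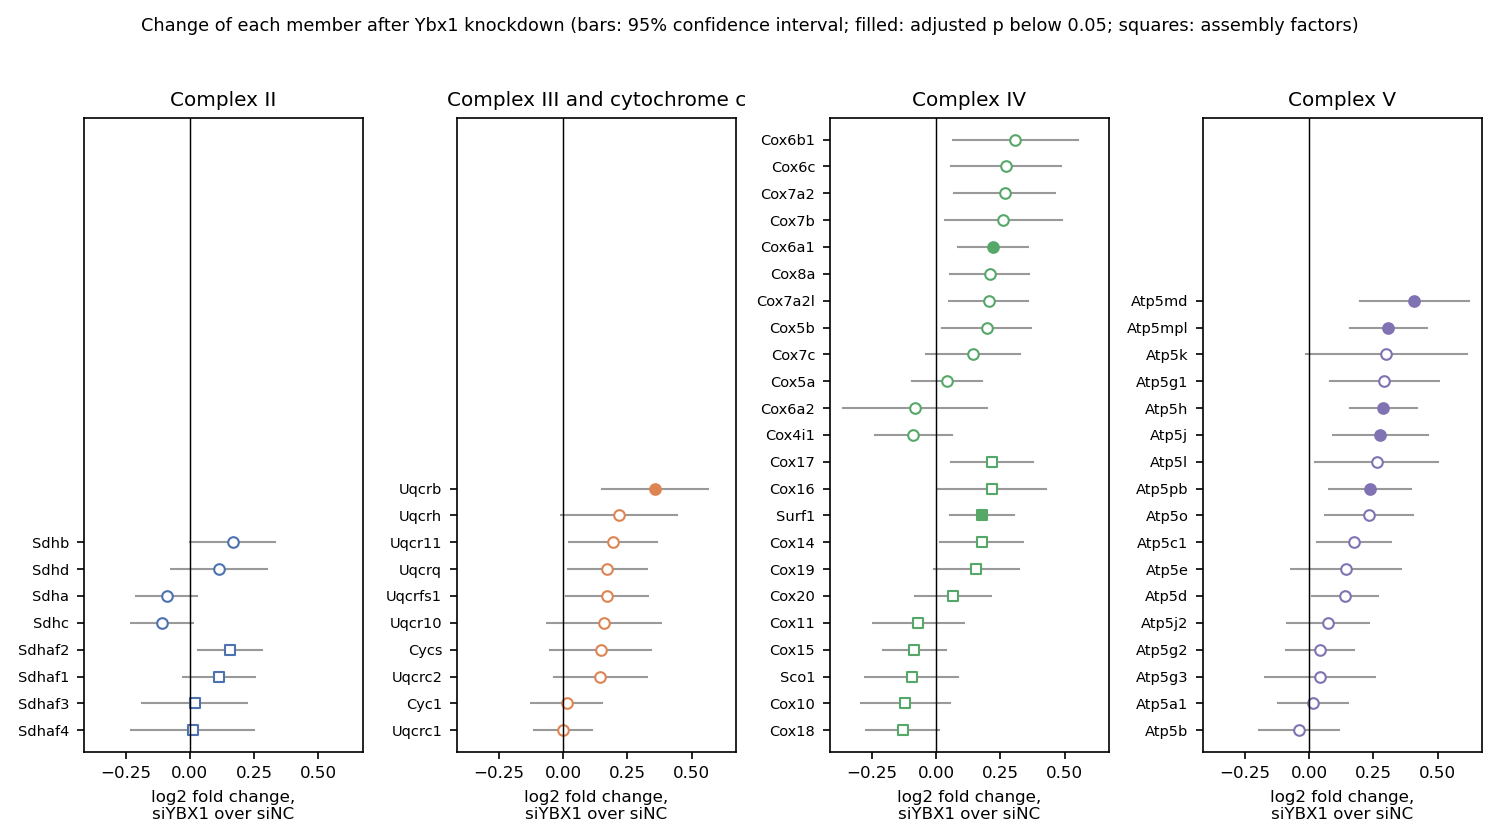
Log2 fold change, siYBX1 over siNC (x axis), of the 58 tested genes by complex, with 95% confidence intervals as bars. Filled symbols passed the threshold, squares are assembly factors. The 5 filled symbols of complex V lie between 0.24 and 0.41, and no filled symbol lies below 0.

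The members were unequal among libraries of 1 group. The siNC replicate 1 library had the lowest value for 45 of the 58 genes, and the siYBX1 replicate 1 library the highest for 36. Over all tested genes these libraries were the lowest for 24.5% and the highest for 14.2%. The median deviation of the 58 genes from their own means was 0.14, 0.07 and -0.01 (log2) in siYBX1 replicates 1 to 3, against -0.21, -0.02 and 0.00 in siNC replicates 1 to 3. The level of siYBX1 replicate 3 was thus near that of siNC replicates 2 and 3. All genes in the shortest group by length had median deviations of 0.04, 0.07 and 0.01 in siYBX1 replicates 1 to 3. In siNC replicates 1 to 3 theirs were -0.09, -0.02 and -0.01. Over all genes siNC replicate 1 also stood apart from the other control libraries, with a chi-square per gene of 26.8 and 22.8, against 5.01 between siNC replicates 2 and 3. Between pairs of siYBX1 libraries it was 9.34 to 12.4. The summed adipocyte list was also lowest in siNC replicate 1 (2159 FPKM, against 2941 to 3006 FPKM in the other siNC libraries). This was not so for every marker, since Plin4 was highest there (95.8 FPKM) and Plin1 and Cidec were lowest in siYBX1 replicate 2 (113 and 174 FPKM). Without siNC replicate 1 the median of the members was 0.10 and 5 were called (9.38% of all genes higher). Without siYBX1 replicate 1 there were 2 calls, Atp5h and Atp5mpl (5.75% of all genes). Leaving out siYBX1 replicate 2 gave 4 calls (5.29% of all genes), and leaving out siNC replicate 3 gave 4 as well (6.56% of all genes). Those 4 were Atp5h, Atp5md, Atp5mpl and Uqcrb in each case. Without siYBX1 replicate 3 there were 9 calls (7.51% of all genes), among them Atp5g1, Atp5l, Cox6c, Cox7a2 and Cox7a2l, which were not called with all libraries. Without siNC replicate 2 there were 10 (8.06% of all genes), with Atp5g1, Atp5o and Cox7a2 added.

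**Figure D2:**
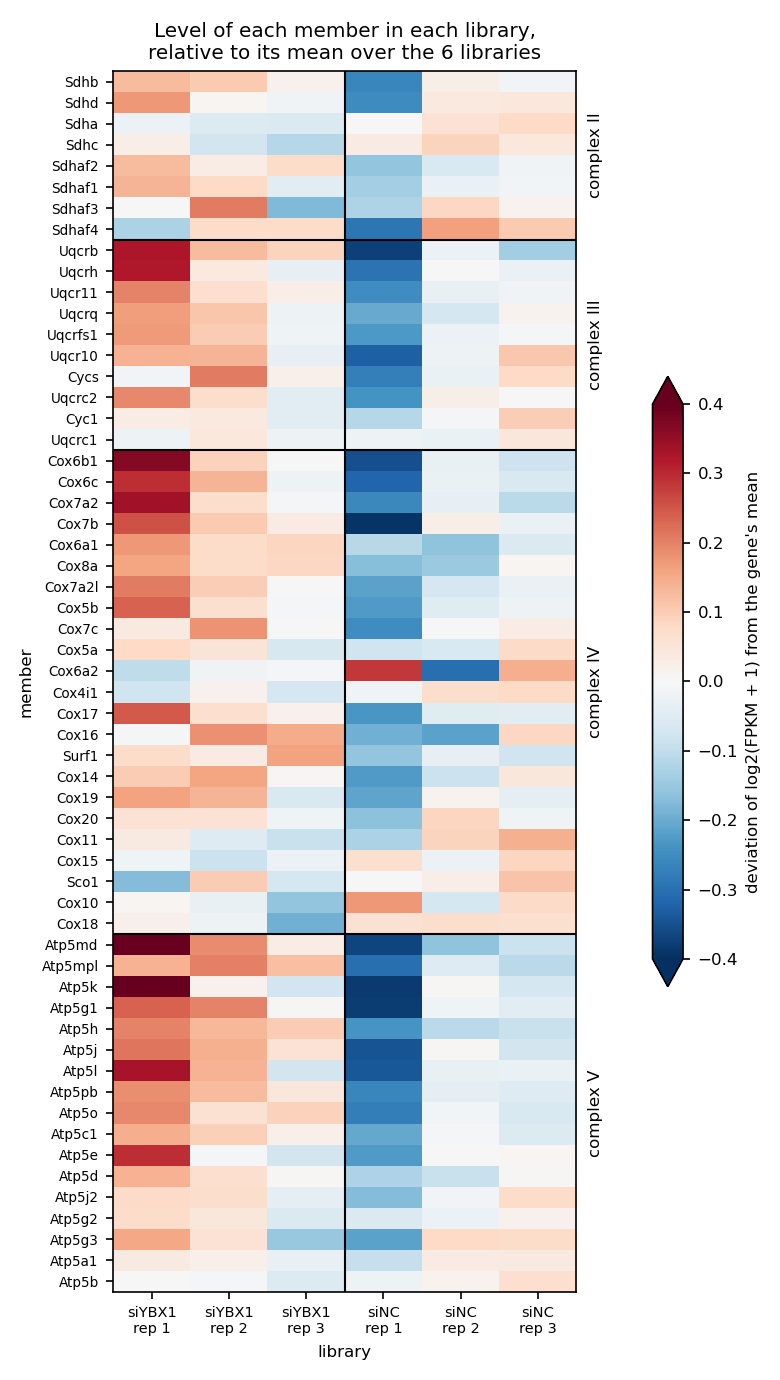
Deviation of log2(FPKM + 1) from each gene's mean over the 6 libraries (colour), for the 58 tested genes (rows, by complex) in the siYBX1 libraries (left) and siNC libraries (right). The column of siNC replicate 1 is the lowest for 45 genes and that of siYBX1 replicate 1 the highest for 36. Over all tested genes these libraries are the lowest for 24.5% and the highest for 14.2%.

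Gene length moved with the change. Most of these genes are short: 45 of 58 (77.6%) fell in the shortest of 5 equal groups of all tested genes, with lengths of 168 to 1846 bases as recovered from the FPKM steps, and all 8 called genes were among them. Of all genes in that group 18.9% were higher in siYBX1, with a median of 0.08, and 29.9% had every siYBX1 library above every siNC library. The 45 members in it had a median of 0.18, and 40 of them were above 0. Of these 45 members 8 were called higher, a share just below the 18.9% of all genes in the group. Across the 58 genes the fold change and log10 length had a Pearson r of -0.51 and a Spearman rho of -0.48, and over all 10341 genes r was -0.24; these genes come from the same 6 libraries and are not independent. After a loess correction for length in each library, the median of the members was 0.09, 4 were called higher (10.4% of all genes) and 3 lower (9.99% of all genes). The 4 were Atp5md, Uqcrb, Atp5mpl and Atp5h. The 3 lower were the complex II anchor Sdhc, the complex IV subunit Cox4i1 and the complex IV insertion factor Cox18.

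**Figure D3:**
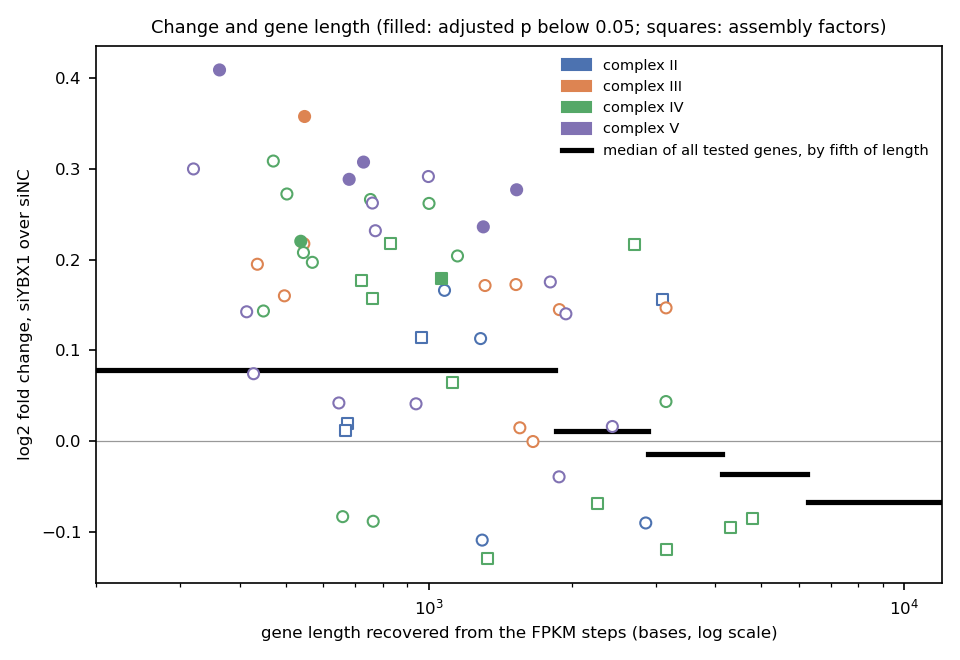
Log2 fold change, siYBX1 over siNC (y axis), against gene length in bases (x axis, log scale) for the 58 tested genes, coloured by complex, with filled symbols for those past the threshold and squares for assembly factors. Black bars are medians of all tested genes in 5 equal groups by length. The 8 called genes all lie in the shortest group, whose bar is at 0.08.

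Promoters of the called genes are shown because the study's factor is named for a promoter element. RefSeq windows of 250 bases before to 50 bases after the start (build GRCm38.p6) matched 48 of the 62 genes by symbol, and 6 of the 8 called. Those without a window were Atp5a1, Atp5mpl, Cox17, Cox18, Cox4i1, Cox4i2, Cox6a2, Cox6c, Cox8c, Cyc1, Sdhc, Uqcrb, Uqcrc2 and Uqcrq. Capitals mark matches on either strand to 5 motifs: CCAAT (reverse ATTGG), the ETS family core CCGGAAG (reverse CTTCCGG) read by the GABP factor, the nuclear respiratory factor NRF1 motif GCGCATGC (reverse GCATGCGC), the YY1 motif AAGATGGC and the oestrogen-related receptor motif AAGGTCA. In Cox6a1 the NRF1 motif is read on both strands, and those 2 matches overlap. The windows are chr5:115348909-115349208 for Cox6a1, chr11:115419870-115420169 for Atp5h and chr19:47090598-47090897 for Atp5md, all on the minus strand and written in the direction of transcription.
Cox6a1: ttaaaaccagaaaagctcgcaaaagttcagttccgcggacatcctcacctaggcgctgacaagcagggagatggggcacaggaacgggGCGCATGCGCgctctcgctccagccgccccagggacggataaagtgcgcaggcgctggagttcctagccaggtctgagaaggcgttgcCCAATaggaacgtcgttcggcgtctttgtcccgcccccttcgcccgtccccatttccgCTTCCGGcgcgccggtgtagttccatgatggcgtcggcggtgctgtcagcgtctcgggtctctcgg
Atp5h: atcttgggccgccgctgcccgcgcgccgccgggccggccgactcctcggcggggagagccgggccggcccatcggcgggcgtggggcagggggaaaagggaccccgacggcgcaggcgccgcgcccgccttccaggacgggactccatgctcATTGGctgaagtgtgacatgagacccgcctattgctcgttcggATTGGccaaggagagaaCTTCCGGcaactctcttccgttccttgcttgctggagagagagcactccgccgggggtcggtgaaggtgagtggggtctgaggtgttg
Atp5md: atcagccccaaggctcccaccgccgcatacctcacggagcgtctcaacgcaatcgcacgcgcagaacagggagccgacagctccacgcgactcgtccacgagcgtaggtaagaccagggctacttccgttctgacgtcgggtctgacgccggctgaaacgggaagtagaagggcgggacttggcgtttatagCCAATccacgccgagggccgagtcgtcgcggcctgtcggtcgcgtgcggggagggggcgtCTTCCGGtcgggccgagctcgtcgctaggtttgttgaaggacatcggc

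These 3 windows hold the CCAAT letters upstream of the start, while those of the other 3 called genes with a window, Atp5j, Atp5pb and Surf1, do not hold them. The 3 printed windows also have the ETS core near the start, at -16 in Cox6a1, -38 in Atp5h and 3 in Atp5md, counted from the start to the first letter. Over the 48 matched genes the CCAAT letters were in 23 (47.9%), against 41.1% of the 27025 genes with a window and 43.8% of the 8357 tested ones. The ETS core was also in 23 (47.9%), against 9.9% of all genes and 22.2% of tested ones. It was in the windows of Atp5h, Atp5j, Atp5md, Cox6a1 and Surf1, and not in that of Atp5pb. The NRF1 motif was in 8 (16.7%), against 3.0% of all and 6.6% of tested genes. These 8 were Atp5g2, Atp5k, Atp5l, Cox6a1, Cycs, Sdhb, Uqcr11 and Uqcrc1. The YY1 motif was in 5 (10.4%), against 3.2% and 5.8%, and the oestrogen-related receptor motif in 5 (10.4%), against 5.4% and 3.5%. A match of letters is a description and not a binding site.

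Complex II had no called gene under limma or voom. At an unadjusted p below 0.05, 2 of 8 (25.0%) were higher and 0 lower, against 17.2% and 19.0% of all genes. Sdha, the flavoprotein that oxidises succinate, was its most abundant subunit and stood at 313, 306 and 305 FPKM in siYBX1, against 318, 331 and 336 FPKM in siNC (log2 fold change -0.09, SE 0.05, adjusted p = 0.253, limma). Sdhc, a membrane anchor that helps bind ubiquinone, had 122, 114 and 111 FPKM in siYBX1, against 123, 128 and 124 FPKM in siNC (-0.11, SE 0.05, adjusted p = 0.176). Both genes had every siYBX1 library below every siNC library, though not past the threshold. Sdhc passed it under length correction (-0.18, adjusted p = 0.0404), quantile normalization (-0.20, adjusted p = 0.0163, 10.4% of all genes lower) and TPM (-0.16, adjusted p = 0.0429, 15.2% of all genes lower), and Sdha under quantile normalization (-0.22, adjusted p = 0.0111). The iron-sulfur subunit gene Sdhb had 155, 153 and 144 FPKM in siYBX1, against 118, 144 and 141 FPKM in siNC (0.17, SE 0.08, adjusted p = 0.138). The other anchor gene, Sdhd, had 174, 154 and 152 FPKM in siYBX1, against 129, 158 and 158 FPKM in siNC (0.11, SE 0.08, adjusted p = 0.361). For these 2 genes siNC replicate 1 was the lowest library and the groups overlapped. The 4 assembly factor genes had fold changes of 0.01 to 0.16 at mean levels of 12.0 to 25.6 FPKM. The highest of them, Sdhaf2, which serves flavin attachment to Sdha, was 27.1 ± 0.945 FPKM in siYBX1 and 24.2 ± 1.26 FPKM in siNC (SD, n = 3 each, adjusted p = 0.0735, limma). The complex II median of 0.07 was -0.03 after length correction and -0.01 without siNC replicate 1, and stayed above 0 under TPM (0.02) and quantile normalization (0.03).

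In complex III the called gene was Uqcrb, a small subunit at the matrix side that helps form the ubiquinone site. It had 439, 383 and 373 FPKM in siYBX1, against 271, 345 and 318 FPKM in siNC. All siYBX1 libraries lay above all siNC libraries, and siNC replicate 1 was the lowest of the 6. Its change was 0.36 (SE 0.09, limma, adjusted p = 0.0212). After length correction it was 0.25 (adjusted p = 0.0270), and 0.29 when siYBX1 replicate 1 was left out (adjusted p = 0.0814). Of its 50-base windows 25.4% also occur in other genes, all 4 of them pseudogenes, and how such reads were counted is not given in the sources used here. The most abundant genes of the complex were the small subunits Uqcr11, with 494, 451 and 439 FPKM in siYBX1 against 362, 422 and 426 FPKM in siNC (0.20, SE 0.08, adjusted p = 0.0967), and the hinge subunit Uqcrh, with 470, 386 and 367 FPKM in siYBX1 against 306, 375 and 369 FPKM in siNC (0.22, SE 0.10, adjusted p = 0.149). The groups overlapped for Uqcrh and not for Uqcr11. The lowest fold changes of the complex were those of Cyc1 and Uqcrc1. Cyc1, cytochrome c1, was 157 ± 5.05 FPKM in siYBX1 and 155 ± 11.5 FPKM in siNC (0.01, adjusted p = 0.890), and the core subunit Uqcrc1 was 153 ± 3.86 FPKM in siYBX1 and 153 ± 4.32 FPKM in siNC (0.00, adjusted p = 0.996). Their 95% intervals were -0.12 to 0.15 for Cyc1 and -0.11 to 0.11 for Uqcrc1. Uqcrfs1, the Rieske iron-sulfur protein, had 0.17 (adjusted p = 0.115), the core subunit Uqcrc2 0.15 (adjusted p = 0.227), and the small subunits Uqcrq and Uqcr10 0.17 and 0.16, none past the threshold. Cycs, cytochrome c itself, was 71.9 ± 6.09 FPKM in siYBX1 and 65.0 ± 8.10 FPKM in siNC (0.15, adjusted p = 0.260). The 5 small subunits had a median of 0.20.

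Complex IV subunits were mostly above 0 but few were called by limma. Of 12 tested subunit genes 10 were above 0, with a median of 0.21, and 11 were in the shortest group by length. In 8 (66.7%) every siYBX1 library lay above every siNC library, against 19.0% of all genes and 29.9% of that length group. Called higher by limma was 1 (8.33%), against 9.54% of all genes and 18.9% of that length group. Cox6a1, the widely expressed form of subunit 6a, was that gene. Voom on recovered reads called 6 of the 12 higher, against 8.75% of all genes. These were Cox6a1, Cox6b1, Cox6c, Cox7a2, Cox7a2l and Cox8a. Cox6a1 had 616, 574 and 579 FPKM in siYBX1, against 505, 488 and 525 FPKM in siNC, so the groups did not overlap (0.22, SE 0.06, adjusted p = 0.0285, limma). It was 0.11 after length correction (adjusted p = 0.202), and each of 5 single libraries left out (siYBX1 replicates 1, 2 and 3, siNC replicates 2 and 3) raised its adjusted p to 0.0567 to 0.107. The muscle form Cox6a2 was rare, at 1.47, 1.63 and 1.64 FPKM in siYBX1 and 2.23, 1.15 and 1.93 FPKM in siNC, and overlapped (-0.08, adjusted p = 0.678).

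The common form of subunit 4 was not among the genes above 0. This gene, Cox4i1, whose product binds adenine nucleotides, was the most abundant gene of the complex, at 1078, 1153 and 1087 FPKM in siYBX1, against 1127, 1198 and 1204 FPKM in siNC. The groups overlapped, and the change of -0.09 (SE 0.07) missed the threshold (adjusted p = 0.372). It was called lower after length correction (-0.18, adjusted p = 0.0314), under quantile normalization (-0.25, adjusted p = 0.00578) and after length correction without siNC replicate 1 (-0.18, adjusted p = 0.0424). Its alternative Cox4i2 was at 0.172, 0.272 and 0.247 FPKM in siYBX1 and 0.237, 0.241 and 0.623 FPKM in siNC, below the level for testing. Cox6b1, a subunit on the intermembrane side, was nearly as abundant as Cox4i1 and had 1447, 1195 and 1122 FPKM in siYBX1, against 878, 1098 and 1058 FPKM in siNC. These groups did not overlap, with siYBX1 replicate 1 and siNC replicate 1 at the extremes. The change missed the threshold under limma (0.31, SE 0.11, adjusted p = 0.0701) and was called by voom.

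Among the small subunits, Cox7a2 had 200, 166 and 158 FPKM in siYBX1, against 132, 155 and 147 FPKM in siNC (0.27, SE 0.09, adjusted p = 0.0569, limma). Its relative Cox7a2l, which takes part in joining complexes III and IV, had 144, 134 and 125 FPKM in siYBX1, against 107, 119 and 122 FPKM in siNC (0.20, SE 0.07, adjusted p = 0.0598). Cox7b had 319, 288 and 273 FPKM in siYBX1, against 203, 272 and 263 FPKM in siNC (0.26, SE 0.10, adjusted p = 0.0936). None of these 3 pairs of groups overlapped, and none passed the threshold under limma. Voom called Cox7a2 and Cox7a2l. The testis form Cox7b2 was listed at 0 in 4 of the 6 libraries and reached at most 0.0576 FPKM, which is 1 read. Cox7a2l made up 43.5% ± 1.45 of the summed FPKM of Cox7a2 and Cox7a2l in siYBX1 and 44.6% ± 1.00 in siNC (SD, n = 3 each, exact permutation p = 0.4, two-sided). Of the 50-base windows of Cox7a2l 13.8% also occur in 1 pseudogene, so this split is uncertain to that extent. Cox6c (0.27), Cox8a (0.21), Cox5b (0.20), Cox7c (0.14) and Cox5a (0.04) were not called by limma either. Of these genes voom called Cox6c and Cox8a. Cox8c, another testis form, was listed at 0 in 5 libraries.

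Of 11 tested assembly factor genes of complex IV 6 were above 0, with a median of 0.07, and Surf1 was called. Surf1, which takes part in inserting haem into the first core subunit, had 51.8, 50.3 and 55.1 FPKM in siYBX1, against 44.0, 48.0 and 46.4 FPKM in siNC, without overlap (0.18, SE 0.06, adjusted p = 0.0447, limma). It was 0.10 after length correction (adjusted p = 0.246), and leaving out siYBX1 replicate 1, 2 or 3 or siNC replicate 1 or 3 put its adjusted p at 0.0615 to 0.137. Voom did not call Surf1. The genes of haem A synthesis, Cox10 and Cox15, had -0.12 and -0.09, and the copper chaperones Cox17, Cox19, Cox11 and Sco1 had 0.22, 0.16, -0.07 and -0.10. Cox18, which inserts a core subunit into the membrane, was 11.3 ± 0.943 FPKM in siYBX1 and 12.4 ± 0.0415 FPKM in siNC (SD, n = 3 each). Its change of -0.13 (adjusted p = 0.174) was -0.20 after length correction (adjusted p = 0.0476, limma). Sco2 was listed at 0 in 5 libraries. Of its 50-base windows 64.6% also occur in Tymp, and 54.2% of those of Cox16 in a neighbouring predicted gene, so values of both are uncertain.

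Complex V had the most calls, and they lay in the stalk and in the membrane part around the rotor. By limma none lay in the catalytic head or the rotor ring (0 of 3 ring genes, median 0.04), a difference that was not tested. The peripheral stalk holds the head still while the rotor turns. Of its 4 genes 3 (75.0%) were called higher, against 9.54% of all genes. All 4 had every siYBX1 library above every siNC library, against 19.0% of all genes. These 4 were also in the shortest group by length, where the shares over all genes were 18.9% and 29.9%. Their median was 0.26, and 0.18 after length correction. Atp5h, subunit d, had 224, 215 and 210 FPKM in siYBX1, against 166, 181 and 184 FPKM in siNC (0.29, SE 0.06, adjusted p = 0.00757, limma). It was called in 15 of 16 alternatives, with 0.19 after length correction (adjusted p = 0.0176). Of the 50-base windows of Atp5h 19.9% also occur in other genes, 13 in number, of which 5 are pseudogenes. Atp5j, subunit F6, had 119, 113 and 107 FPKM in siYBX1, against 80.5, 103 and 97.4 FPKM in siNC (0.28, SE 0.08, adjusted p = 0.0409). Atp5pb, subunit b, had 325, 312 and 295 FPKM in siYBX1, against 239, 278 and 276 FPKM in siNC (0.24, SE 0.07, adjusted p = 0.0398). For both, siNC replicate 1 was well below the other control libraries, and each was called in 5 of 16 alternatives. Leaving out siYBX1 replicate 1, 2 or 3 or siNC replicate 1 or 3 put the adjusted p at 0.0526 to 0.134 for Atp5j and at 0.0525 to 0.135 for Atp5pb. Atp5o, the OSCP subunit that ties the stalk to the head, was 510 ± 24.6 FPKM in siYBX1 and 435 ± 41.7 FPKM in siNC (SD, n = 3 each). It missed the threshold under limma (0.23, adjusted p = 0.0566) and was called by voom. Of the 50-base windows of Atp5o 17.1% also occur in 2 other genes.

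The membrane part around the rotor held the largest fold change of the 58 genes. Atp5md, which encodes the small protein DAPIT, had 352, 305 and 273 FPKM in siYBX1, against 207, 239 and 252 FPKM in siNC. All siYBX1 libraries were above all siNC libraries. Its change was 0.41 (SE 0.10, limma, adjusted p = 0.0144). After length correction it was 0.30 (adjusted p = 0.0117), and 0.31 when siYBX1 replicate 1 was left out (adjusted p = 0.0515). Atp5mpl, which encodes the 6.8-kDa proteolipid, had 152, 159 and 150 FPKM in siYBX1, against 112, 133 and 128 FPKM in siNC (0.31, SE 0.07, adjusted p = 0.0110). It was 0.21 after length correction (adjusted p = 0.0196), was called without each single library, and did not overlap. Both were called in 14 of 16 alternatives. The genes for subunits e, g and f were not called: Atp5k had 0.30 (SE 0.14, adjusted p = 0.152), Atp5l 0.26 (SE 0.11, adjusted p = 0.108) and Atp5j2 0.07 (SE 0.07, adjusted p = 0.492). Groups overlapped for all 3.

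**Figure D4:**
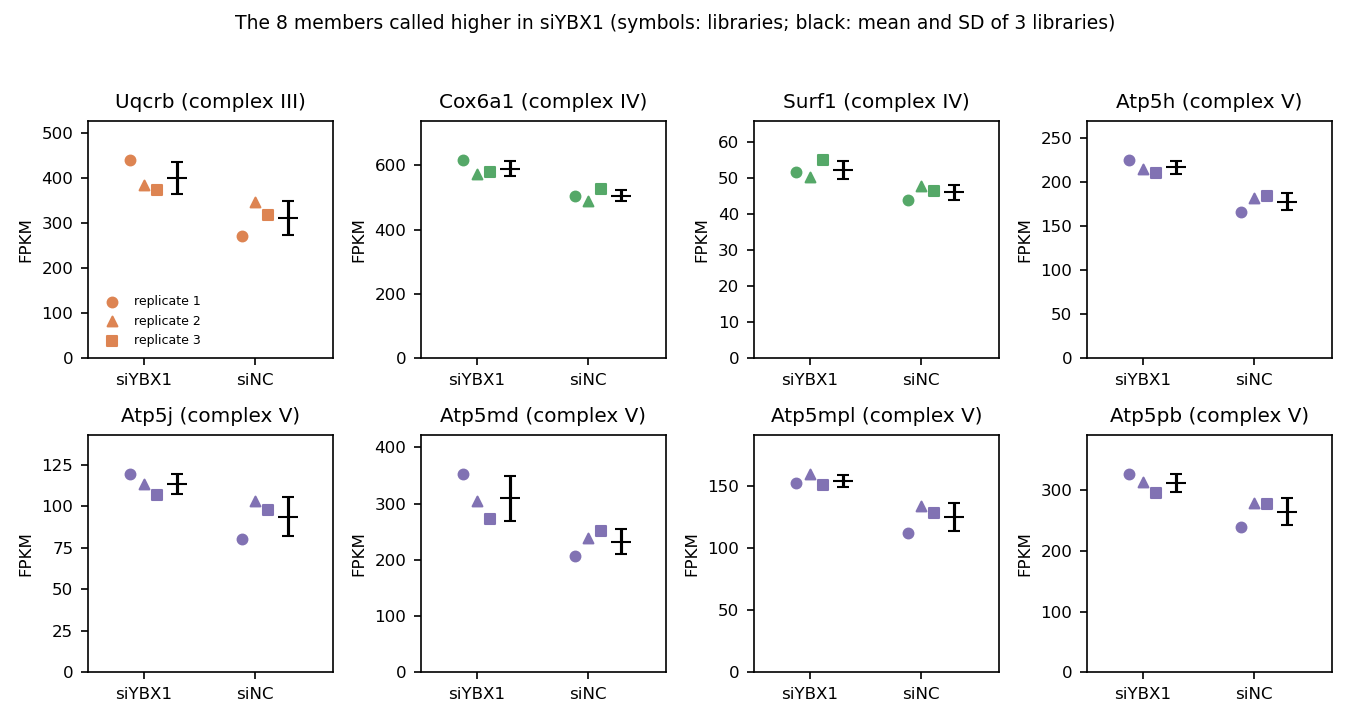
FPKM in each library (symbols by replicate number) of the 8 called genes in siYBX1 (left) and siNC (right), with mean and SD of 3 libraries in black. The groups do not overlap in any panel, and siNC replicate 1 is the lowest library in all panels but that of Cox6a1.

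In the catalytic head and its shaft 0 of 5 genes were called by limma or voom, and 2 of the 5 were in the shortest group by length. At an unadjusted p below 0.05 there were 2 higher and 0 lower, against 17.2% and 19.0% of all genes. Atp5b, the beta subunit with the catalytic sites, was the most abundant gene of all 62 and number 14 in the whole table, at 1966, 1955 and 1890 FPKM in siYBX1, against 1936, 1981 and 2055 FPKM in siNC. The groups overlapped and the log2 fold change was -0.04 (SE 0.07, 95% interval -0.20 to 0.12, adjusted p = 0.730, limma). Its partner Atp5a1, the alpha subunit, had 531, 526 and 508 FPKM in siYBX1, against 486, 531 and 531 FPKM in siNC (0.02, SE 0.06, 95% interval -0.12 to 0.15, adjusted p = 0.878), and its sign turned under TPM, quantile normalization and without siNC replicate 1. The genes of the central shaft, Atp5c1 (gamma), Atp5d (delta) and Atp5e (epsilon), had 0.18, 0.14 and 0.14, none past the threshold.

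The rotor ring is built from 1 protein, subunit c, which 3 genes encode with different import sequences. Atp5g1 had 139, 135 and 118 FPKM in siYBX1, against 90.4, 117 and 115 FPKM in siNC (0.29, SE 0.10, adjusted p = 0.0541, limma). It was called by voom. Atp5g2 had 391, 383 and 356 FPKM in siYBX1, against 356, 365 and 376 FPKM in siNC (0.04, SE 0.06, adjusted p = 0.649). Atp5g3 had 519, 486 and 420 FPKM in siYBX1, against 402, 493 and 490 FPKM in siNC (0.04, SE 0.10, adjusted p = 0.795). Groups overlapped for Atp5g2 and Atp5g3 and not for Atp5g1, whose nearest libraries were siYBX1 replicate 3 and siNC replicate 2. The signs of Atp5g2 and Atp5g3 turned under length correction, quantile normalization and TPM. As a share of the summed FPKM of the 3 genes, Atp5g1 made up 13.3%, 13.5% and 13.2% in siYBX1, against 10.7%, 12.0% and 11.7% in siNC. The mean shares were 13.3% ± 0.141 in siYBX1 and 11.4% ± 0.691 in siNC (SD, n = 3 each), a difference of 1.89 percentage points (exact permutation p = 0.1, two-sided, the smallest that 3 against 3 libraries allow). Over the 4 shares compared, with that of Cox7a2l, the exact permutation p for Atp5g1 was 0.4 after Benjamini-Hochberg adjustment. Atp5g2 made up 38.4% in siYBX1 and 39.2% in siNC (exact permutation p = 0.6), and Atp5g3 48.3% in siYBX1 and 49.3% in siNC (exact permutation p = 0.4). Of the 50-base windows of Atp5g2 38.3% also occur in other genes, and 10.2% of those of Atp5g1, so this split is uncertain to that extent.

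These genes are highly expressed. Of the 62, 5 were among the 100 most abundant of the table by mean FPKM, 17 among the first 200 and 41 among the first 1000. Together they took 4.08%, 3.85% and 3.74% of the summed FPKM in siYBX1, against 3.44%, 3.75% and 3.80% in siNC. The siYBX1 and siNC shares overlapped. Complex II took 0.189% to 0.196% in siYBX1 and 0.188% to 0.202% in siNC, complex III with cytochrome c 0.573% to 0.637% in siYBX1 and 0.499% to 0.578% in siNC, complex IV 1.47% to 1.60% in siYBX1 and 1.32% to 1.46% in siNC, and complex V 1.51% to 1.64% in siYBX1 and 1.44% to 1.56% in siNC. The complex IV ranges did not overlap. Over the 58 genes, which share the 6 libraries, fold change and log2 mean FPKM had a Pearson r of 0.40 and a Spearman rho of 0.32.

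Genes that work with these complexes but lie outside the symbol rule were called in shares near or below those of all genes. Of 52 tested genes for assembly, mitochondrial translation, ubiquinone and regulation 5 were higher (9.62%, against 9.54% of all genes) and 3 lower (5.77%, against 11.1% of all genes), with a median of 0.03. Higher were Pet100 (0.46, adjusted p = 0.0121), Cmc1 (0.29, adjusted p = 0.0388) and Higd2a (0.27, adjusted p = 0.0119), which take part in complex IV assembly. Slirp, which stabilises mitochondrial messenger RNA with Lrpprc, was also higher (0.43, adjusted p = 0.0213, limma), as was the complex III assembly factor Uqcc2 (0.30, adjusted p = 0.0115). Lrpprc itself was 25.9 ± 0.934 FPKM in siYBX1 and 27.7 ± 0.570 FPKM in siNC (SD, n = 3 each, -0.09, adjusted p = 0.213). Atpaf1, the chaperone that places the beta subunit in the head of complex V, fell to 3.67, 4.06 and 3.93 FPKM in siYBX1, against 4.69, 5.47 and 5.58 FPKM in siNC (-0.35, SE 0.07, adjusted p = 0.00863). Coq10a, a ubiquinone-binding protein, fell to 14.1, 13.8 and 13.6 FPKM in siYBX1, against 19.1, 17.9 and 18.6 FPKM in siNC (-0.40, SE 0.05, adjusted p = 0.000868). Neither gene's groups overlapped, and both were called in every alternative that tested them (15 for Atpaf1, 16 for Coq10a). Coq6, a hydroxylase of ubiquinone synthesis, was lower as well (-0.21, adjusted p = 0.0244). Leaving out single libraries ended the calls of Cmc1 (siYBX1 replicate 1 or 3, or any siNC replicate, adjusted p = 0.0532 to 0.127), Coq6 (siYBX1 replicate 2 or 3, siNC replicate 2 or 3, 0.0553 to 0.0829), Slirp (siYBX1 replicate 1 or 2, 0.0514 to 0.0687), Higd2a (siYBX1 replicate 1 or siNC replicate 3, 0.0504 to 0.0514) and Uqcc2 (siYBX1 replicate 2, 0.0502). After length correction Cmc1 (adjusted p = 0.0633) and Higd2a (adjusted p = 0.0728) were no longer called.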

How the data were processed

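The authors deposited 1 table of FPKM values with 6 library columns, which were matched to the siYBX1 and siNC samples by name and number. Named in the submitters' processing notes, with neither role nor version, are HISAT2, HTSeq, fastp and GRCm39. Strandedness and the handling of reads shared by similar genes are not given in the sources used here.

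Tests used limma 3.58.1 (R 4.3.3), two-sided, on log2(FPKM + 1) with trended variance, where mean FPKM reached 1. The added 1 understates changes of low genes. Because deposited FPKM values are multiples of what a read is worth, library totals, gene lengths and whole reads (tolerance 0.02 reads) could be recovered for 16422 of 16423 genes (99.994%). The table's genes held 99.36% to 99.42% of the totals. For a 2 kb gene a single read equals 0.0141 to 0.0156 FPKM, so low values are coarse. On simulated data for siYBX1 against siNC (10315 genes, 50 changed at each size), reads were drawn independently at a single dispersion of 0.003. Recovered were 78% of 1.25-fold, 100% of 1.5-fold, 96% of 2-fold and 98% of 3-fold changes, with 7 false among 193 calls. Shifts by library or gene length, as seen here, were not simulated, so these rates do not carry over to the data. Alternatives were another pseudocount (0.1), no filter, a filter of 5 FPKM, TPM, quantile normalization, a loess correction for length (span 0.3), voom on recovered reads (mean of at least 10), a replicate block and each library left out. Shared sequence was sought as 50-base windows in GENCODE vM21 transcripts (GRCm38). Shares were tested by exact permutation. Values are given per library for called genes, the 2 most abundant genes of each complex, complex II subunits, subunit c genes and isoform pairs; proteins were not used here. The genes and lists were chosen with earlier results of these data known. Other software was pandas 2.3.3, numpy 2.4.6, scipy 1.17.1 and matplotlib 3.10.9 under Python 3.11.15.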

Additional observations from a re-analysis of the deposited data

How the results depend on the processing

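The 36 genes followed by name were refitted under 16 alternatives. Of the values 443 kept their direction and side of the threshold, 87 lost a call, 16 gained one and 28 changed sign. Beyond what an alternative changes by construction, the cause was not tested. Sco2, Cox4i2, Cox7b2 and Cox8c fell under the FPKM filter and were tested with no filter only.

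Over all genes 577 were higher and 664 lower with no filter, which tests all 16423 genes. Leaving out 1 library gave 547 to 970 higher and 604 to 1056 lower.

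Members called higher numbered 1 with no filter, 5 under quantile normalization, 4 with length correction, 14 with voom on recovered reads, and 2 to 10 with 1 library left out. Without siNC replicate 1 and with length correction, 3 were higher and 1 lower, with a median of 0.051. Members called lower numbered 1 under TPM, 3 under quantile normalization and 3 with length correction.

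By complex, length correction gave 1 lower in II, 0 higher and 2 lower in IV and 3 higher in V. Quantile normalization gave 2 lower in II, 1 higher and 1 lower in IV, and 3 higher in V (median 0.117). TPM gave 1 lower in II and 0 higher in IV. With no filter 0 were higher in III and IV and 1 in V, and voom called 6 in IV. With 1 library left out, calls higher were 0 to 1 in III, 0 to 3 in IV and 2 to 7 in V. Without siNC replicate 1 and with length correction the medians were -0.066 in II, 0.054 in III, 0.048 in IV and 0.098 in V, with 0 higher in III, 0 higher and 1 lower in IV and 3 higher in V. Partner genes called higher numbered 1 with no filter, 3 with length correction, 3 with that and without siNC replicate 1, and 2 to 6 with 1 library left out. Called lower under TPM were 5.

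Same-numbered libraries deviated in opposite directions (r of -0.31, -0.13 and -0.25 over all genes), no library correlated best with its own number, and the numbers were not taken as pairs. A fit with the replicate block called 607 genes higher and 739 lower, and 3 members higher (0 in III, 0 in IV, 3 in V). The replicate block with length correction called 533 higher and 673 lower, 1 member higher (0 in III, 0 in IV, 1 in V) and 0 partner genes higher.

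Genes whose values changed sign had log2 fold changes of -0.083 (Cox6a2) to 0.113 (Sdhd) in the limma fit used above. Under TPM, quantile normalization and without siNC replicate 1, Atp5a1 was -0.036, -0.036 and -0.026, and Cyc1 -0.037, -0.091 and -0.038. Under TPM and quantile normalization Atp5g2 was -0.010 and -0.043, and Atp5g3 -0.011 and -0.040. With length correction, alone or with the replicate block, Atp5g2 was -0.060, Atp5g3 -0.048 and Cyc1 -0.032. With length correction and without siNC replicate 1, Atp5a1 was -0.028, Atp5g2 -0.039, Atp5g3 -0.113, Cyc1 -0.072 and Sdhd -0.032. Without siYBX1 replicate 1, Atp5g3 was -0.026 and Uqcrc1 0.010. Without siNC replicate 1, Atp5g3 was -0.055 and Cox6a2 0.037. Cyc1 was -0.001 without siYBX1 replicate 2, and Uqcrc1 was 0.010 without siYBX1 replicate 3 and 0.023 without siNC replicate 3. With 1 library left out the values ranged over -0.026 to 0.038 for Atp5a1, -0.055 to 0.127 for Atp5g3, -0.038 to 0.068 for Cyc1 and -0.021 to 0.023 for Uqcrc1.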

Other observations

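Regulators of nuclear respiratory genes showed no called change. Of 9 genes 8 were tested, and 0 were called by limma or voom, with 0 also at an unadjusted p below 0.05. Gabpa, the DNA-binding part of the ETS factor GABP, was 20.8 ± 0.258 FPKM in siYBX1 and 19.4 ± 0.706 FPKM in siNC (SD, n = 3 each), without overlap between the groups (0.09, adjusted p = 0.222, limma). Esrra, an oestrogen-related receptor, was 17.3 ± 0.199 FPKM in siYBX1 and 17.3 ± 0.362 FPKM in siNC (0.00, adjusted p = 0.967). Nrf1 was 1.67 ± 0.174 FPKM in siYBX1 and 1.84 ± 0.0798 FPKM in siNC (-0.09, adjusted p = 0.395). Yy1 was 11.6 ± 0.834 FPKM in siYBX1 and 12.4 ± 0.372 FPKM in siNC (-0.09, adjusted p = 0.318), and Tfam, the mitochondrial DNA packaging and transcription factor, 8.61 ± 0.525 FPKM in siYBX1 and 8.43 ± 0.516 FPKM in siNC (0.03, adjusted p = 0.796). Ppargc1a, a coactivator of mitochondrial genes, was below the level for testing, at 0.606 ± 0.0224 FPKM in siYBX1 and 0.729 ± 0.0630 FPKM in siNC. Its relative Ppargc1b was 1.57 ± 0.179 FPKM in siYBX1 and 1.87 ± 0.109 FPKM in siNC (-0.16, adjusted p = 0.148). For both coactivators every siYBX1 library lay below every siNC library. How often this held over all genes was not counted. Ppargc1a and Ppargc1b are long, at 15.9 and 10.5 kb. In the longest of 5 equal groups by length, the median of all tested genes was -0.07 and 14.4% were lower. After length correction Ppargc1b was -0.09 (adjusted p = 0.397, limma). Cox7a1, an isoform set aside by the symbol rule, was 19.3 ± 0.829 FPKM in siYBX1 and 17.9 ± 1.61 FPKM in siNC (0.10, adjusted p = 0.30).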
